A study of Mus musculus with 54 samples.

Results

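Neural progenitor cells (NPC) derived from mouse embryonic stem (ES) cells were compared with undifferentiated ES cells, using 4 of the 54 samples of a series on the long noncoding RNA Haunt and the HOXA genes. The samples were chosen by their labels: 1 library of NPC and the 3 libraries of wild-type ES cells at day 0. The NPC came from 46C, an ES line of strain 129/Ola with GFP knocked into Sox1, which was differentiated for 6 days in serum-free N2B27 medium and then sorted for GFP by flow cytometry. The ES day 0 cells were the lines CJ7 (1 library) and JF4 (2 libraries), both labelled wild type and 129S1/SVImJ, kept unsorted in serum with 1000 U/ml of leukemia inhibitory factor (LIF). The deposited table holds the authors' mean over those 3 libraries, not the libraries themselves. Line, strain label, medium, sort and differentiation all differ between the compared columns and cannot be told apart.

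The same table gives 5 further columns, which served for the filter and for levels side by side. They are wild-type cells at days 2, 4 and 6 after LIF withdrawal (means of 2 libraries, 1 library and a mean of 3 libraries), mesendoderm (ME) and neural stem cells (NSC), each 1 library. ME came from an ES line with GFP in T, sorted for GFP after 6 days without LIF. NSC were made from 46C in the same way as the NPC and then expanded in N2B27 with 10 ng/ml EGF and FGF-2 to passage 15. Values are FPKM, fragments scaled to transcript length and library size. A gene was counted as higher or lower where log2(FPKM + 1) in NPC and in ES day 0 differed by at least 1, provided that the gene reached 1 FPKM in 2 or more of the 7 columns. Of 39056 entries 12511 passed that filter. The NPC library held about 27.8 M reads, so that 1 FPKM rests on about 27.8 reads per kb. That depth was estimated from a line through 15 entries of at most 1200 bases, whose values were taken as 1 read each. The means give no depth. With 1 library against a mean, no test was possible and no difference below has an error or a p-value.

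Neural progenitors are the dividing cells of the neural tube. They are marked by SoxB1 transcription factors such as Sox1 and Sox2 and by Pax6, and they give rise to neurons and later to glia. Notch signalling between neighbours keeps part of them as progenitors, while proneural factors push others to become neurons. Their position along the body axis is written in homeobox genes: Otx2 and Six3 toward the front, Hox genes toward the hindbrain and spinal cord. ES cells hold a separate network around Pou5f1, Nanog and Zfp42, which differentiation shuts down.

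All 4 genes given as marks of the NPC column were high there. Crabp1 (chr9:54612615-54620916, mm9), a cytoplasmic carrier of retinoic acid, stood at 1129 FPKM in NPC and 11.1 in ES day 0, a ratio of 102. Its other columns lay between 0.41 (NSC) and 13.6 (day 4). Irx3 (chr8:94322410-94325553), a homeobox factor of the caudal neural plate, stood at 91.5 in NPC, 0.56 in ES day 0 and 17.4 in NSC. Pax6 (chr2:105515670-105537521) stood at 55.9, 1.37 and 17.7. Sox1 (chr8:12395519-12399555) was listed at 21.8 in NPC and at 0.034 to 0.91 in the other 6 columns. The cells were sorted on the GFP inserted in Sox1, so its level checks the sort and is no finding. Sox1 also failed the filter, since NPC was the only column where it reached 1 FPKM.

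Across all genes 1853 were higher in NPC (14.8% of those that passed the filter) and 1416 lower (11.3%), with a median difference of 0.07. The middle of the genes, from the lower to the upper quartile, lay between -0.44 and 0.63. Of the 1853 higher genes 943 had their highest value of the 7 columns in NPC and 692 in NSC. Of the 1416 lower genes 774 had their highest value in ES day 0. A further 345 entries reached 1 FPKM in no column but NPC and so were outside the filter, and 334 did so in no column but ES day 0. With at least 1 FPKM in either compared column as the filter, 2081 of 12654 genes were higher and 1654 lower.

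**Figure D1:**
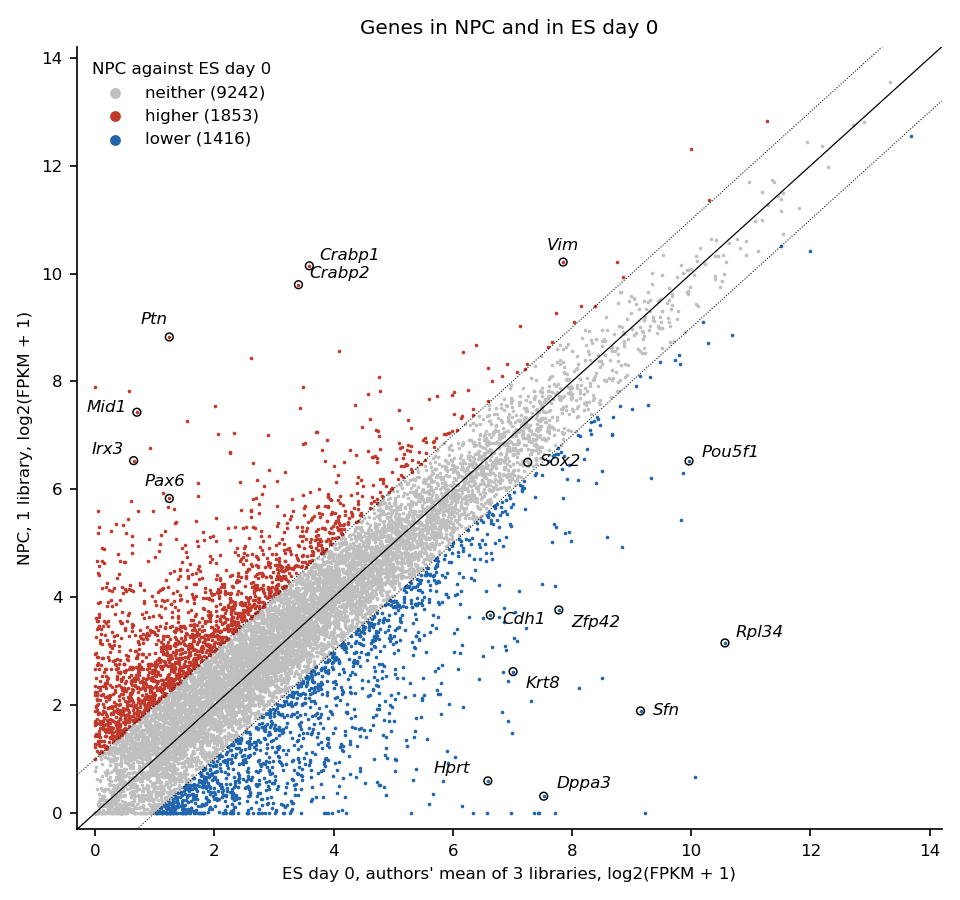
Each point is 1 of 12511 genes, with log2(FPKM + 1) of ES day 0 (authors' mean of 3 libraries) on the x axis and of NPC (1 library) on the y axis. The solid line marks equal values and the dotted lines a difference of 1. Crabp1, Crabp2, Ptn and Irx3 lie far above the lines, Pou5f1, Zfp42 and Dppa3 far below, and Sox2 between them.

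Of 35 early neural progenitor genes, 29 passed the filter, and 22 of these were higher and 1 lower, with a median of 3.74. The list holds the genes given as marks of NPC, and Crabp1, Irx3 and Pax6 are among the 22. Irx3 counts again in the hindbrain and spinal cord list and Crabp1 in the retinoid list. The early neural progenitor list was chosen with earlier results of these data known, as were all lists here. The counts of each list stand against 14.8% higher and 11.3% lower over all genes. Ptn, a secreted growth factor, stood at 1.37 FPKM in ES day 0, 452 in NPC and 1885 in NSC. Fabp7, a fatty acid carrier of radial glia, stood at 0.48, 225 and 1227. Both were thus higher still in the expanded NSC. Crabp2, which carries retinoic acid to the nucleus, had the opposite order in the neural columns, with 9.63 FPKM in ES day 0, 886 in NPC and 0.31 in NSC. Crabp1 and Crabp2 together were among the genes that set NPC apart from NSC.

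The neural transcription factors of the list were mostly near 0 in ES day 0. Sox3, a SoxB1 factor like Sox1, stood at 0.53 FPKM in ES day 0 and 34.3 in NPC. Sox21, which opposes the SoxB1 factors, stood at 1.26 and 36.3, and Zic1 at 0.031 and 20.8. Sox2, which ES cells and neural progenitors share, was in neither class: 152 FPKM in ES day 0, 89.5 in NPC and 88.1 in NSC, against 13.6 to 17.2 at days 4 and 6 after LIF withdrawal and in ME. The structural genes were higher. Cdh2 (N-cadherin) stood at 3.17 FPKM in ES day 0 and 129 in NPC, Nes (nestin) at 21.1 and 142, and the RNA-binding protein gene Msi1 at 3.79 and 102. Of the 6 members outside the filter, Sox1, Dbx1 (8.30 FPKM), Hes5 (7.33) and Lhx5 (4.80) reached 1 FPKM in NPC and in no other column.

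The POU factors that follow Sox2 in neural cells, named here after their values were seen, had the same pattern. Pou3f2 stood at 0.023 FPKM in ES day 0 and 24.5 in NPC, Pou3f3 at 0.047 and 22.9, and Pou3f4 at 0.19 and 7.50. The noncoding 2610017I09Rik, whose entry lies beside Pou3f3 on chromosome 1, stood at 0.030 and 47.6. All 4 were also above 7 FPKM in NSC.

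**Figure D2:**
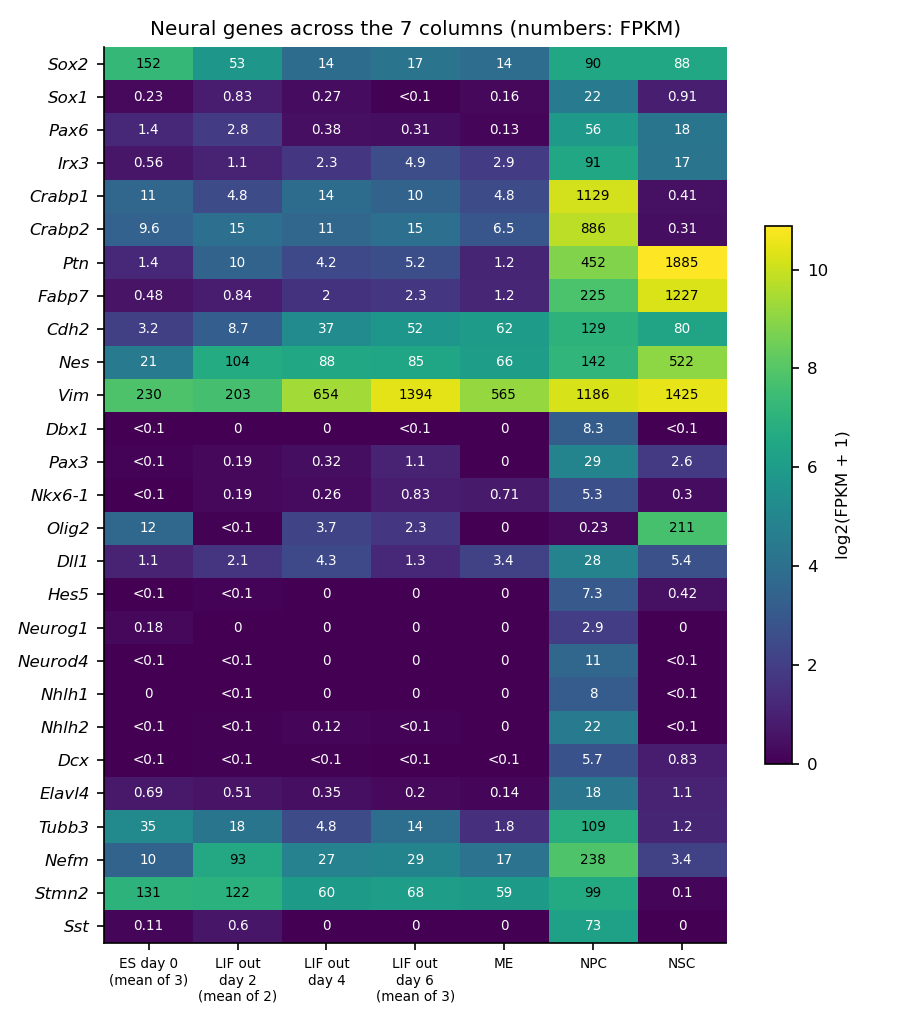
Colour gives log2(FPKM + 1) and the printed number the FPKM of 27 neural genes (rows) in the 7 columns of the table. ES day 0 and days 2 and 6 are the authors' means, the other columns 1 library each. The factors of new neurons (Neurod4, Nhlh1, Nhlh2, Dcx) are lit in the NPC column and near 0 in NSC, while Olig2 is at 0.23 in NPC and 211 in NSC.

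Genes of the hindbrain and spinal cord were high in NPC, and those of the forebrain were mostly below 1 FPKM. Of 30 hindbrain and spinal cord genes, 19 passed the filter, 15 were higher and 0 lower, with a median of 3.39. A lower call needs at least 1 FPKM in ES day 0, which only 1 of the 30 reached. The 0 lower is thus no comparison with all genes. Of 20 forebrain genes, 6 passed and 2 were higher. These 2 were Nr2f1 (0.043 FPKM in ES day 0, 38.7 in NPC) and Nr2f2 (0.11 and 24.0), nuclear receptors that are also expressed behind the forebrain and respond to retinoic acid. The defining forebrain factors Six3, Rax and Emx2 were listed at 0.031, 0 and 0.18 FPKM in NPC. Otx2, a factor of forebrain and midbrain, stood at 4.65 FPKM in ES day 0 and 5.23 in NPC, so the 2 columns were alike.

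Midbrain and isthmus genes were low in level in NPC, with 5.39 FPKM of Lmx1b as the highest of 12. Of the 6 that passed the filter 4 were higher, Lmx1b, En1, En2 and Fgf8, and 2 lower, Sp5 (1.85 and 0.057) and Cnpy1 (3.11 and 0.52). En1 stood at 0.95 FPKM in ES day 0, 3.57 in NPC and 21.0 in NSC, En2 at 0.63, 2.85 and 1.57, and Pax2 at 0.015, 2.91 and 0.010. Gbx2, which meets Otx2 at the midbrain-hindbrain border, stood at 22.4 FPKM in ES day 0 and 17.5 in NPC. The Irx and Meis factors were the most abundant of the caudal list. Meis2, a partner of Hox proteins, stood at 0.90 FPKM in ES day 0 and 108 in NPC, Meis1 at 0.30 and 26.8, and Irx5 at 0.20 and 36.5. Egr2, a segment factor of the hindbrain, was lower in level, at 0.096 and 2.71 FPKM.

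Several genes of the HOXA and HOXB clusters were on in NPC, and those of HOXC and HOXD were not. They included genes toward the 3′ end and also Hoxa7, Hoxb7 and Hoxb8. Of these Hoxa7 was in neither class, with a log2 difference of 0.64. Of 10 HOXB genes 6 passed the filter and all 6 were higher. Of 11 HOXA genes 5 passed and 3 were higher, Hoxa2, Hoxa3 and Hoxa4. No gene of either cluster reached 1 FPKM in ES day 0, so none could be lower. Those that passed were the same genes that reached 1 FPKM in NPC, so these counts follow in part from the filter. None of the 9 HOXC or the 9 HOXD genes reached 1 FPKM in NPC, and their highest values there were 0.45 (Hoxc4) and 0.12 (Hoxd3). Hoxa2 (chr6:52112416-52114830) stood at 24.6 FPKM in NPC, 16.7 in NSC and at most 0.22 in the other columns.

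Along the HOXB cluster the NPC values had a gap. Hoxb1 stood at 4.05 FPKM, Hoxb2 at 14.0, Hoxb3 at 10.8 and Hoxb4 at 8.28. The next genes in the row, Hoxb5 and Hoxb6, were listed at 0.021 and 0. Hoxb7 and Hoxb8 behind them stood at 14.5 and 9.77, and Hoxb9 at 0.058. ES day 0 was at most at 0.34 FPKM (Hoxb7) for these 9 genes. The gap was not seen at day 6 after LIF withdrawal, where Hoxb6 was listed at 6.49. The genes lie close together, and whether the counting used strand is not stated, so values of neighbours are uncertain.

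**Figure D3:**
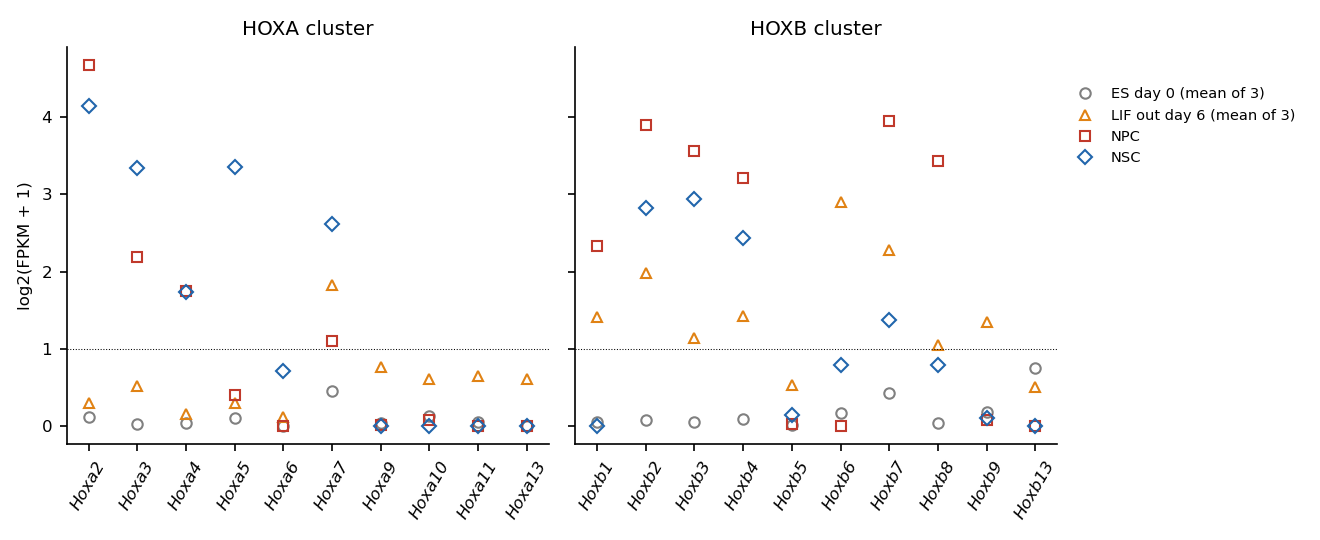
log2(FPKM + 1) of the HOXA genes from Hoxa2 on (left) and the HOXB genes (right), in the order of the clusters, for ES day 0, day 6 after LIF withdrawal, NPC and NSC. The dotted line marks 1 FPKM. NPC values are above the line for Hoxa2 to Hoxa4, Hoxa7, Hoxb1 to Hoxb4, Hoxb7 and Hoxb8, and near 0 for Hoxb5 and Hoxb6.

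Next to HOXA, the RNA that the series studies was lower in NPC. Haunt (Gm15055, chr6:52052948-52062531) stood at 53.7 FPKM in ES day 0, 4.13, 0.18 and 0.27 at days 2, 4 and 6 after LIF withdrawal, 18.5 in NPC and 66.3 in NSC, and was listed at 0 in ME. Its level in the 2 columns made from 46C was thus far above that of days 4 and 6 and of ME. Hotairm1 (Gm15051), a noncoding RNA at the 3′ end of HOXA, stood at 1.48 FPKM in ES day 0 and 16.0 in NPC. Of the other neighbours Skap2 stood at 28.3 and 22.2, and Snx10 at 8.52 and 8.06.

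Several dorsal and intermediate neural tube factors were on in NPC, and of the ventral ones Nkx6-1 and Nkx6-2 were above 1 FPKM. Of 22 dorsoventral genes 13 passed the filter, with 3 higher and 3 lower, and 5 more reached 1 FPKM in NPC alone. The dorsal factors Pax3 and Pax7 stood at 28.9 and 6.38 FPKM in NPC and at 0.078 and 0.016 in ES day 0. Gsx1 (6.32 FPKM), Dbx1 (8.30), Dbx2 (2.80) and Msx3 (4.09), factors of dorsal and intermediate domains, and Nkx6-1 (5.29), a factor of the ventral domains, were the 5 outside the filter. The floor plate genes Shh and Foxa2 were at 0.25 and 0.38 FPKM and the ventral factor Nkx2-2 at 0.43. Nkx6-2 stood at 3.94 FPKM in ES day 0 and 3.27 in NPC. Of the dorsal genes, Gsx2, Lmx1a and Msx1 were below 1 FPKM in NPC.

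Genes of the Shh response went different ways. Gli1, a target and effector of the pathway, stood at 9.47 FPKM in ES day 0 and 0.67 in NPC, while Gli3, which mostly acts as its repressor, stood at 2.07 and 20.6. Ptch1, the receptor and a target, was in neither class (7.03 and 5.98). Olig2, the factor of motor neuron and oligodendrocyte progenitors, stood at 12.0 in ES day 0, 0.23 in NPC and 211 in NSC. Olig1 was at 5.70 FPKM in ES day 0, 115 in NSC and listed at 0 in NPC.

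Radial glial genes were on in part. Of 30 genes 21 passed the filter, with 11 higher and 5 lower. Vim stood at 230 FPKM in ES day 0 and 1186 in NPC, and Ednrb at 0.036 and 35.5. Later glial genes were low in NPC and high in NSC. Slc1a3, the glial glutamate transporter, stood at 2.66 FPKM in NPC and 183 in NSC, Tnc at 0.52 and 232, Bcan at 0.52 and 169, and Nfib at 0.35 and 30.6. The astrocyte genes Gfap, Aqp4 and S100b were below 0.3 FPKM in NPC.

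Genes of newly born neurons were present in the sorted NPC. Of 42 neuronal genes 24 passed the filter, 15 of them higher and 1 lower, and 13 others reached 1 FPKM in NPC and in no other column. Nefm, a neurofilament, stood at 10.2 FPKM in ES day 0, 16.7 to 93.5 in the LIF withdrawal and ME columns, 238 in NPC and 3.40 in NSC. Elavl3 and Elavl4, RNA-binding proteins of neurons, stood at 29.1 and 18.3 in NPC and at 4.20 and 0.69 in ES day 0. Tubb3 stood at 34.6 in ES day 0 and 109 in NPC.

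The genes seen in NPC alone included genes of the step from progenitor to neuron, whose share of that set was not counted. Nhlh2 stood at 21.6 FPKM, Neurod4 at 11.1, Nhlh1 at 8.04, Scrt2 at 6.04, Dcx at 5.70, Neurog1 at 2.88 and Neurog2 at 1.49, and in each of the other 6 columns these were at or below 0.83 (Dcx in NSC). Named after their values were seen, 2 more classes stood in the same set of 345 entries. Sst, the neuropeptide somatostatin, was at 73.4 FPKM, and Lbx1, a factor of dorsal interneurons, at 11.3. Tfap2b (15.1 FPKM), Prdm13 (7.76), Robo3 (8.04) and the glycine receptor gene Glra1 (10.6) were likewise below 0.2 FPKM in the other 6 columns, apart from Prdm13 at day 2 (0.50). Whether progenitors or a share of neurons in the sort carry these RNAs was not tested, and in bulk RNA fewer cells of a type and less RNA per cell cannot be told apart.

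Not every neuronal gene was low in ES cells. Stmn2 stood at 131 FPKM in ES day 0 and 99.1 in NPC, Ina at 30.8 and 41.3, Chga at 12.0 and 10.3, and Neurod1 at 3.73 and 3.75. Nefh was lower, at 35.0 and 5.52. These genes do not mark neurons in this table. Gad1, Gad2, Th and Slc17a6, of transmitter synthesis or transport, were low, at 0.57, 0.30, 0.16 and 0.99 FPKM in NPC. The synaptic genes Snap25 (0.37 and 12.3 FPKM) and Syp (log2 difference of 1.49) were higher.

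Notch pathway genes were higher at the ligand and at several targets. Notch receptors are cut when a neighbour presents a Delta ligand, and the freed part acts with the DNA-binding protein Rbpj on genes such as Hes1 and Hes5. RBPJ recognises the letters TGGGAA, and the RefSeq promoters (GRCm38.p6, 250 bases before the start of transcription) of Hes5 and of Lfng each hold 2 matches on either strand. They are shown 5′ to 3′ on the gene's strand with the matches in capitals, since Hes5 is the target read in NPC alone and Lfng a modifier of the receptors. Hes5 is at chr4:154960673-154960922 and Lfng at chr5:140607091-140607340, both on the plus strand.
Hes5: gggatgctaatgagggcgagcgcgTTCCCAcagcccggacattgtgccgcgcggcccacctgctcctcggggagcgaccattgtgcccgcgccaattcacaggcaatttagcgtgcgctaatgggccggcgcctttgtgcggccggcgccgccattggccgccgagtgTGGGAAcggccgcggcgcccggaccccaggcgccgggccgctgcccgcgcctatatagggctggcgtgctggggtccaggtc
Lfng: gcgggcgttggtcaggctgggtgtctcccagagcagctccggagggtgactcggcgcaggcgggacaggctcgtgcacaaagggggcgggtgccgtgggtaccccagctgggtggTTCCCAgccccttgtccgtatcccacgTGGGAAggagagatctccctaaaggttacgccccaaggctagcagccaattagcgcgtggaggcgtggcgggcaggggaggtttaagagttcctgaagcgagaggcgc
Over the whole window of 300 bases, 6 of 23 Notch list genes with a promoter in the table held a match (26.1%), against 28.3% of 27025 genes, so the letters were no more frequent in the list.

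Of 29 Notch pathway genes 22 passed the filter, with 11 higher, 1 lower and a median of 1.10. Among ligands Dll1 stood at 1.11 FPKM in ES day 0 and 28.0 in NPC and Dll3 at 0.90 and 3.92, while Jag1 was at 2.48 and 5.15 and Jag2 at 5.00 and 3.50. The receptors Notch1, Notch2 and Notch3 stood at 10.4, 11.1 and 13.7 in NPC and at 3.39, 3.26 and 4.70 in ES day 0. Of the targets, Hes5 was at 7.33 FPKM in NPC and 0.42 in NSC, Nrarp, a feedback inhibitor, at 17.6 and 4.02, and Hes1 at 17.5 and 14.6. Hes1 did not set NPC apart, as it stood at 22.5 at day 4 after LIF withdrawal and 30.8 in ME. Lfng stood at 2.89 in ES day 0, 15.5 in NPC and 30.5 in NSC. Rbpj itself was lower, at 40.5 and 13.7.

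The naive pluripotency genes were the list with the lowest median, -3.07. Of 30 genes 28 passed the filter, 27 were lower and 0 higher, and Prdm14 and Tcl1, above 1 FPKM at ES day 0 alone, were lower too. Il6st, the shared receptor chain of LIF, was the exception at 9.97 and 7.61 FPKM. Dppa3 stood at 183 FPKM in ES day 0 and 0.24 in NPC, Dppa5a at 905 and 41.9, Esrrb at 85.5 and 4.62, and Klf4 at 43.4 and 2.42. Zfp42, the marker also known as Rex1, stood at 219 in ES day 0, 12.6 in NPC and 0.019 in NSC.

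Pou5f1 and Sox2 bind joined octamer and Sox sites in ES cells. The letters ATGCAAAT, chosen after values were seen and searched on both strands, occur in the promoter of Zfp42 and of no other of the 19 naive genes with a promoter in the table (5.26%), against 1.97% of all genes. The 250 bases before the start of Zfp42, on the minus strand at chr8:43307010-43307259 (GRCm38.p6), are shown with the match in capitals.
Zfp42: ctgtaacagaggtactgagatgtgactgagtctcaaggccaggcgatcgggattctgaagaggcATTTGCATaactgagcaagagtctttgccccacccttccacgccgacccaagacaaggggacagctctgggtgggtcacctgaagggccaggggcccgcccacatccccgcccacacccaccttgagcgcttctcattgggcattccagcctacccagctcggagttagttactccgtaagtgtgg
Pou5f1 and Zfp42 were lower side by side in NPC, and a match of letters does not show that the factor acts there.

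Core pluripotency genes were lower less evenly. Of 16 genes with an entry 11 were lower and 1 higher, with a median of -1.30. Pou5f1 stood at 997 FPKM in ES day 0, 885, 579 and 177 at days 2, 4 and 6 after LIF withdrawal, 486 in ME, 91.0 in NPC and 0.39 in NSC. Nanog stood at 70.5, 28.1, 33.4, 10.5, 33.6, 7.62 and 0.29 in the same order. Both were lowest in the neural columns, yet NPC kept 9.13% of the Pou5f1 and 10.8% of the Nanog level of ES day 0. Lin28a was in neither class, at 58.4 and 76.1, and its paralog Lin28b was higher, at 6.57 and 23.6. Both were below 0.09 FPKM in NSC.

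As a percent of ES day 0, the 26 naive genes with at least 10 FPKM there lay between 0.13% (Dppa3) and 28.4% (Jarid2) in NPC, with a median of 6.71%. The median in NSC was 0.35%. Over all 5013 genes with at least 10 FPKM in ES day 0 the NPC median was 89.6%. NPC thus still held pluripotency RNAs at levels that NSC did not. Whether a remainder of undifferentiated cells in the sort, or RNA left in each cell, carries them was not tested.

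**Figure D4:**
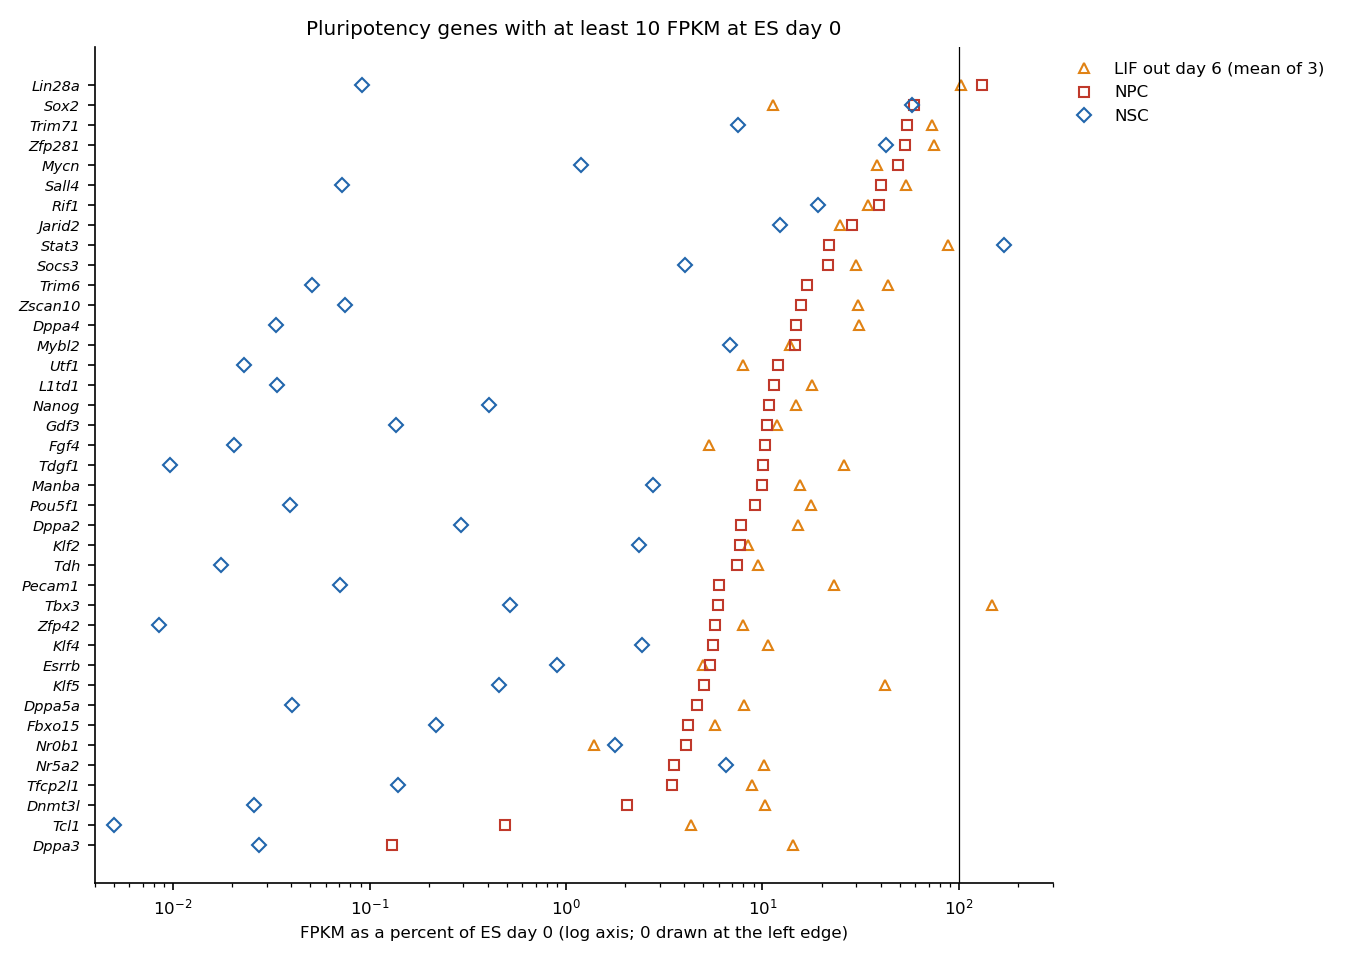
Levels of naive and core pluripotency genes with at least 10 FPKM at ES day 0, ordered by their level in NPC. The x axis is the FPKM as a percent of ES day 0 on a log scale, for day 6 after LIF withdrawal (mean of 3), NPC and NSC. NPC values run from 0.13% (Dppa3) to 130% (Lin28a), and the vertical line marks the level of ES day 0.

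Several epithelial genes were lower and several mesenchymal or neural adhesion genes higher. Of 34 adhesion genes 14 were lower, 10 higher and 10 in neither class. Among those in neither class were Tjp1, Ocln and Cldn3, of epithelial junctions, with log2 differences of -0.03, -0.46 and -0.79. Fn1 (-0.91) and L1cam (0.99) were in neither class too. E-cadherin (Cdh1) stood at 97.9 FPKM in ES day 0 and 11.7 in NPC, Epcam at 115 and 13.0, and the claudin Cldn4 at 24.6 and 0.99. Keratins Krt8 and Krt18 stood at 128 and 113 in ES day 0, at 1619 and 1271 at day 6 after LIF withdrawal, and at 5.15 and 5.14 in NPC. Their levels went apart between the serum and the neural routes. Of the transcription factors that repress Cdh1, Zeb1 (2.46 and 19.6 FPKM) and Zeb2 (0.84 and 24.4) were higher, while Snai1 and Snai2 were at 0.37 and 1.51 in NPC and in neither class.

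Axon guidance genes were mostly higher, 21 of the 29 that passed the filter, with 2 lower and a median of 1.72. The Eph receptors Epha7 (0.96 FPKM in ES day 0, 47.7 in NPC) and Epha4 (3.78 and 32.3) and the ephrins Efnb1 (1.69 and 21.8) and Efnb2 (7.31 and 50.6) were higher. Sema5b, a semaphorin, stood at 1.49 and 48.7. Dcc and Slit1, a netrin receptor and a midline repellent, were at 7.19 and 6.73 FPKM in NPC and failed the filter. Epha2, an Eph receptor of ES cells and epithelia, was lower at 22.5 and 6.15.

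**Figure D5:**
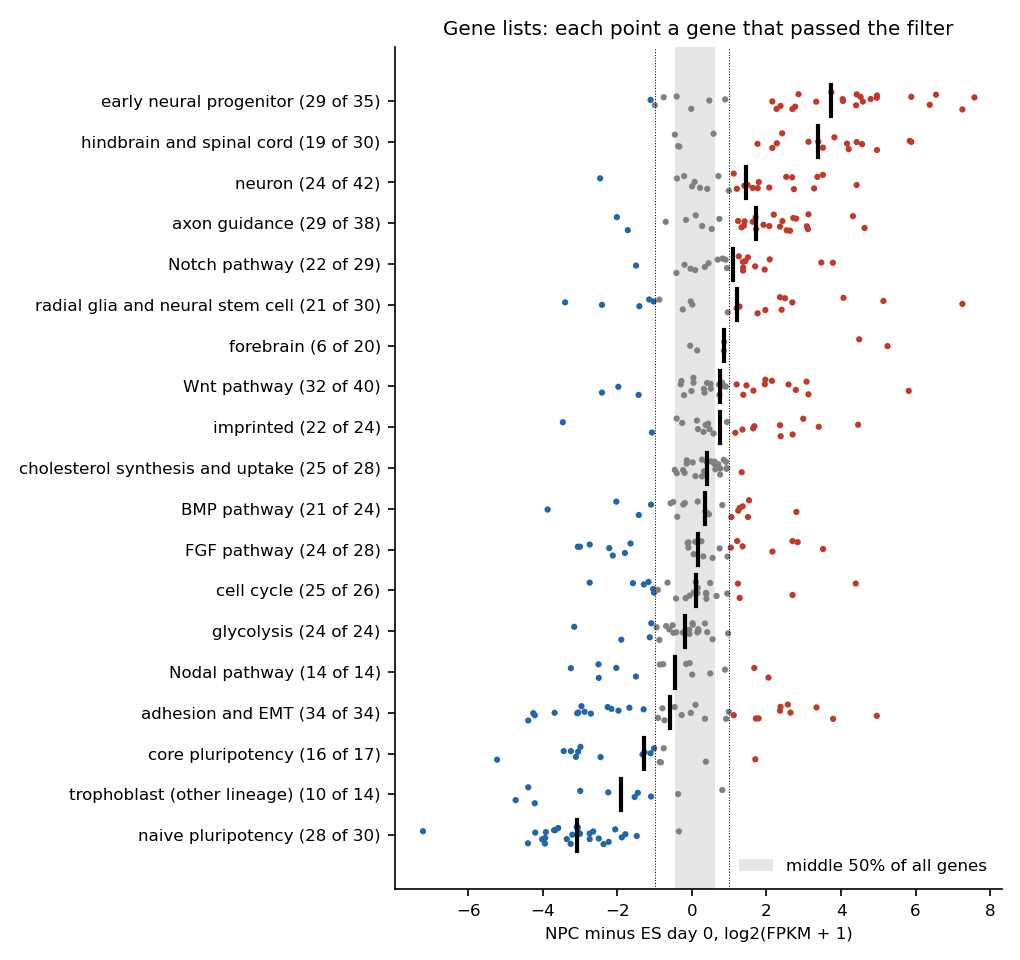
NPC minus ES day 0 on the log2(FPKM + 1) scale for 19 gene lists, with the number of genes that passed the filter of those listed. Each point is a gene (red higher, blue lower, grey neither), black bars are list medians, dotted lines mark a difference of 1 and the grey band the middle 50% of all genes. The lists run from early neural progenitor genes (median 3.74) to naive pluripotency genes (median -3.07).

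Signalling genes lay on both sides. Of 32 Wnt genes 12 were higher and 3 lower. The secreted antagonists Sfrp1 (8.14 and 78.8 FPKM) and Sfrp2 (5.14 and 345) and the receptors Fzd3 (0.37 and 10.5) and Fzd2 (1.11 and 11.7) were higher. Axin2, a target of the pathway, stood at 3.19 and 9.90, and Sp5, another, at 1.85 and 0.057. The 2 targets were thus on opposite sides.

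Of 24 FGF genes 7 were higher and 7 lower, 29.2% each, against 14.8% and 11.3% of all genes. Fgf4, the main FGF of ES cells, stood at 50.9 FPKM in ES day 0 and 5.22 in NPC, and Fgf15, which is expressed in neural tissue, at 2.79 and 26.1. Fgfr3 stood at 0.31 and 7.54. Genes that FGF and ERK signalling induce went both ways. Spry4 was lower (18.4 and 1.42), as were Etv4 (12.5 and 2.87) and Etv5 (32.6 and 9.72), and Dusp4 was higher (10.5 and 50.6). Spry1 (3.35 and 5.40), Spry2 (30.6 and 31.7) and Dusp6 (11.1 and 13.5) were in neither class. In NSC, grown with FGF-2 and EGF, Spry4 and Etv5 stood at 87.8 and 110.

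Of 21 BMP genes 7 were higher (33.3%) and 4 lower (19.0%), against 14.8% and 11.3% of all genes. Bmp4, whose protein blocks neural fate, stood at 28.8 FPKM in ES day 0, 97.4 at day 6 after LIF withdrawal, 1.03 in NPC and 0.66 in NSC, while the ligand Bmp7 was higher at 0.72 and 3.18. Follistatin (Fst), an inhibitor of activin and BMP, was higher at 2.30 and 22.0, while Nog and Chrd were below 1 FPKM in both. Of the Id genes, targets of BMP, Id1 (10.5 and 7.73) and Id3 (26.5 and 18.4) were in neither class and Id2 (12.0 and 36.6) and Id4 (2.51 and 8.03) were higher. Of 14 Nodal genes 5 were lower (35.7%) and 2 higher (14.3%). Among the lower were the co-receptor Tdgf1 (179 and 17.9), the antagonist Lefty2 (13.8 and 1.60) and Nodal (9.11 and 2.57). Lefty1 stood at 17.7 and 15.8.

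In the retinoid pathway, 7 of 17 genes were higher (41.2%) and 2 lower (11.8%), against 14.8% and 11.3% of all genes. The carriers Crabp1, Crabp2 and Fabp5 (64.0 and 221 FPKM) made up most of the 2386 FPKM that the list summed to in NPC, against 180 in ES day 0. Cyp26a1, an enzyme that degrades retinoic acid, was at 1.76 in ES day 0 and 3.68 in NPC, against 92.3 to 139 at days 4 and 6 after LIF withdrawal and in ME. Cyp26b1, its relative, reached 9.59 in NPC and at most 0.24 elsewhere. Rarg was lower, at 48.1 and 9.27, and Rara in neither class, at 13.1 and 26.7. The synthesising enzymes Aldh1a1, Aldh1a2 and Aldh1a3 were below 0.03 FPKM in NPC.

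Chromatin regulators differed in direction within families. Of the DNA methyltransferases, Dnmt3l stood at 157 FPKM in ES day 0 and 3.22 in NPC and Dnmt3b at 141 and 66.0, while Dnmt1 was higher at 60.1 and 131. Of the Tet enzymes, Tet1 (28.1 and 3.20) and Tet2 (25.5 and 4.50) were lower and Tet3 (0.49 and 2.65) higher. In Polycomb complex 1, Cbx7 was lower (22.3 and 6.74) and Cbx2 (3.26 and 16.3) and Cbx8 (0.30 and 2.27) were higher, with Bmi1 at 1.52 and 21.5. In complex 2, Ezh2 stood at 139 and 211 and its partners Jarid2 (118 and 33.5), Mtf2 (77.8 and 19.4) and Eed (120 and 45.8) were lower.

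Of 19 subunit genes of the BAF chromatin remodeller, 5 were higher (26.3%) and 1 lower (5.26%), against 14.8% and 11.3% of all genes. Smarca2 stood at 1.03 FPKM in ES day 0 and 13.5 in NPC and Smarcc2 at 7.94 and 36.1. The ES cell subunits Smarca4 (97.0 and 165) and Smarcc1 (128 and 174) were in neither class. So were the subunits of neural complexes Dpf1 (9.30 and 6.57), Smarcd3 (3.44 and 7.59) and Ss18l1 (1.33 and 3.45), and Dpf3, with a log2 difference of 0.96. Actl6b, of the complex in neurons, was at 1.46 in NPC. The lower gene was Smarcd2 (15.8 and 6.26). RNA-binding and HMG genes of fetal growth included 5 higher of 10: Igf2bp3 (10.3 and 113), Hmga2 (4.45 and 48.2), Hmgb3 (19.4 and 189), Igf2bp2 (20.4 and 74.3) and Lin28b.

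Imprinted genes were higher in 10 of 22 cases (45.5%) and lower in 2 (9.09%), against 14.8% and 11.3% of all genes. Mest stood at 16.1 FPKM in ES day 0 and 376 in NPC, Grb10 at 33.0 and 176, Ndn at 5.69 and 52.0, and the cell cycle inhibitor Cdkn1c at 23.4 and 158. Meg3 and Rian, noncoding RNAs of the Dlk1-Dio3 domain, stood at 40.7 and 52.9 in NPC and at 0.15 and 0.12 in NSC. Phlda2 (28.3 and 1.66) and Snrpn (95.9 and 45.1) were lower. H19 was below 0.2 FPKM in both columns.

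Cell cycle genes were mixed. Of 25 cell cycle genes 4 were higher (16%) and 6 lower (24%), with a median of 0.10. Over all genes 14.8% were higher and 11.3% lower. Mki67 stood at 104 and 137 FPKM, Top2a at 237 and 264 and Pcna at 137 and 152, all in neither class. The replication gene Mcm2 (142 and 63.0) and the mitotic genes Aurka (62.3 and 29.8) and Ccnb1 (96.0 and 47.0) were lower. Aurka and Ccnb1 lay close to the threshold and missed it with a pseudocount of 5 (-0.95 and -0.96). Among the regulators of the G1 phase the D cyclin Ccnd2 (2.31 and 68.8) and Ccnd1 (18.8 and 45.6) were higher, and cyclin E1 (Ccne1, 147 and 48.4) was lower.

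Medians of the metabolic lists lay between the quartiles of all genes (-0.44 and 0.63), on opposite sides of the median of all genes (0.07). Of 25 genes of cholesterol synthesis and uptake 1 was higher (4%), Cyp51 (9.50 and 25.5 FPKM), and 0 lower, with a list median of 0.40. With a pseudocount of 0.1, 4 were higher. Of 24 glycolysis genes 0 were higher and 4 lower (16.7%), with a list median of -0.18. The lower ones were Pfkp (68.4 and 6.77), Hk2 (53.7 and 13.7), Ldhb (111 and 50.2) and Pdk1 (22.1 and 9.87). Pkm (1057 and 1010) and Ldha (561 and 513) were in neither class. Of 21 genes of ATF4 targets and stress 2 were higher (9.52%), Fos (1.42 and 5.80) and Jun (7.18 and 17.5), and 3 lower (14.3%). The shares of that last list lay near the 14.8% and 11.3% of all genes.

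Markers of other lineages were checked for cells that the sort could hold. Mesendoderm markers summed to 12.8 FPKM over 25 genes in ES day 0, 11.2 in NPC and 798 in ME, and Gsc, Mixl1, Mesp1 and Msgn1 were listed at 0 in NPC. The 2 higher genes of that list, Lhx1 (0.030 and 2.57) and Fgf8 (1.17 and 3.47), also serve in neural tissue, and Fgf8 missed the threshold with differences centred on the median of all genes (0.98). Of 11 extraembryonic endoderm genes 3 were higher (27.3%) and 2 lower (18.2%), against 14.8% and 11.3% of all genes. The higher ones were the collagens Col4a1 (9.36 and 23.1) and Col4a2 (6.81 and 26.9) and the adaptor Dab2 (0.92 and 3.16), while the defining factors Gata4, Gata6, Sox17 and Sox7 were at 0.53, 0.097, 0.012 and 0.024 in NPC. The list summed to 586 FPKM in NPC, of which Apoe, a lower gene, held 463. Of 10 trophoblast genes 8 were lower, with Tfap2c at 39.3 and 0.52. Epidermal keratins Krt5, Krt14 and Krt17 were listed at 0 in NPC. Fibroblast genes summed to 127 in ES day 0 and 55.9 in NPC, with 0 higher of 14. Blood and endothelial genes were all below 1 FPKM in NPC. Neural crest genes were mixed, with 5 of 14 higher, and the defining crest factors Sox10 and Foxd3 were at 0.014 and 0.77 in NPC. The cleavage-stage Zscan4 genes, near-identical copies whose reads can be split among them, were at 2.09 to 3.57 in ES day 0 and at most 0.28 in NPC.

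By size, the largest differences joined these groups with genes of another kind. Among the 15 largest higher genes were Ptn, Fabp7, Crabp1, Crabp2, Irx3, Meis2, Sfrp2, Nr2f1 and Ednrb, and also Igdcc3 (1.90 and 154 FPKM), Insl6 (3.03 and 187), Tspan18 (0.51 and 54.2) and 2610017I09Rik. Among the 15 largest lower genes were Dppa3, Khdc3 (70.5 and 0.098), an oocyte and ES cell gene, and Sfn (567 and 2.71), the epithelial gene of stratifin. A further 6 were small nucleolar RNAs with spans of 113 to 139 bases, listed at 0 in NPC and at 80.1 to 600.2 in ES day 0. Entries that short have no dependable FPKM in mRNA libraries.

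A few differences in the same ranking ran along the cell lines. Hprt, the purine salvage enzyme, was at 95.2 FPKM in ES day 0, 58.5 to 84.0 in the LIF withdrawal columns and 59.4 in ME, and at 0.51 and 0.37 in NPC and NSC, the columns made from 46C. Mid1 was at 171, 116 and 259 in NPC, NSC and ME, the columns labelled 129/Ola, and at most 3.70 elsewhere. Ftl1, ferritin light chain, was at 4.68, 1.75 and 1.62 in those 3 columns and at 234 or more in the others. The Y-linked Eif2s3y stood at 21.2 in ES day 0, 4.00 in NPC and 1.06 in NSC, and Ddx3y at 9.58, 1.28 and 0.49. The day 4 column, from another line than 46C, was also low for these Y-linked genes, at 2.26 and 1.62. ES day 0 is a mean over 2 lines, so whether these genes follow the line was not tested. For Hprt, Mid1 and Ftl1 line or strain moves with the difference, and their part in other differences was not tested.

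Exact zeros were a second limit at the extremes. Sept7, a cytoskeletal gene, was listed at 0 in ES day 0, the 3 LIF withdrawal columns and NSC, and at 238 in NPC and 231 in ME. Nolc1, a nucleolar protein gene, was listed at 0 in day 2, ME and NPC and at 94.6 in ES day 0. Rpl34 (1515 and 7.88) and the overlapping Rpl34-ps1 (1072 and 0.58) were low in day 2, ME, NPC and NSC alike. Among the 12511 genes 150 were listed at 0 in NPC and 22 in ES day 0, and genes that every cell uses were among them.

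The most abundant named entries in NPC were those of translation, folding and the mitochondrial genome. Hsp90ab1 stood at 6907 FPKM in NPC and 6716 in ES day 0, Npm1 at 4020 and 5004, Rplp2 at 5552 and 3947, and Rpsa at 2936 and 2344. Gm15772, the top entry, stood at 12003 and 10340. Of the 15 most abundant, Snora65 and Mir703, with spans of 118 and 109 bases, and the mitochondrial Cytb (1258 and 2623) were higher and none lower, and Cytb missed the threshold with centred differences (0.99).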

How the data were processed

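RNA was sequenced from stranded mRNA libraries, per the labels' protocols. The authors deposited 1 table with a value per gene and 7 columns, in no stated unit and taken as FPKM from their range and steps. Columns of ES day 0 and of days 2 and 6 are the authors' means. Tools named in the submitters' processing notes, with no role, include Bowtie 1.0.0 and TopHat2 2.0.11, with mm9 as the build. Which program computed the FPKM is not given in the sources used. Starts are listed from 0 and given here from 1.

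Of 39067 entries, 11 with repeated symbols were left out. From the deposited FPKM, log2(FPKM + 1) was computed in Python 3.11.15 with pandas 2.3.3, and the counting was tested on simulated data. Named are members of 42 gene lists, the 15 largest differences each way with at least 10 FPKM in the higher column, and the 15 highest entries in NPC. Comparison, lists and rules were chosen with earlier results of these data known. Myc, Hmgcs1, Hottip and Rhox5, and the other samples and tables of the series, were not analysed here. A few list members count in their lists but are not reported by name here. Promoter sequences are RefSeq's (GRCm38.p6).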

Additional observations from a re-analysis of the deposited data

How the results depend on the processing

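No paired analysis was possible because NPC is 1 library and ES day 0 is deposited as a mean, and for the same reason no library could be left out. The main counts were 1853 higher and 1416 lower. A pseudocount of 5 gave 780 and 663, a filter of 5 FPKM in 2 columns 1186 and 932, and a threshold of 2 log2 units 489 and 421. The other 11 settings stayed within 1.5 times: a pseudocount of 0.1 (2503 and 1930), no filter, 1 FPKM in either compared column, unnamed loci left out, centring on the median, upper-quartile and TMM scaling, and 4 added after the data were seen (1 FPKM in any column, and entries at 0, spans under 300 bases, or chromosomes X, Y and M left out). The share of higher among called genes ran from 51.1% (TMM) to 58.0% (entries at 0 left out), against 56.7%. Of 614 genes from the lists or the ranking, 103 no longer passed the threshold with a pseudocount of 5, and 57 more passed with 0.1. TMM scaling moved 5 below and 6 above it. No gene that was higher or lower in the main counts turned its direction, and genes in neither class were not checked for that. Values near 1 FPKM rest on few reads in short genes.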

Other observations

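Values below were chosen after they were seen and have no test. On chromosome 19 (29326318 to 29436361, mm9), 4 neighbouring genes were higher in NPC. Jak2, the kinase of cytokine receptors, stood at 1.74 FPKM in ES day 0, 28.9 in NPC and 8.50 in NSC. Insl6 and Rln1, relaxin family genes, stood at 187 and 40.1 in NPC and at most at 6.91 (Insl6 in ME) and 1.93 (Rln1 at day 2) in the other columns. Plgrkt stood at 5.55 and 20.6. The genes to either side were not higher: Rcl1 at 41.6 and 20.5, and Cd274 at 0.18 and 0.33. The 4 genes together summed to 276 FPKM in NPC and to 10.6 to 33.0 in the other columns.

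A run of zinc finger genes on chromosome 4 (145207049 to 147076740, mm9) was lower in NPC. Of 17 named genes there that passed the filter 15 were lower, with a median of -2.22. Gm13242 stood at 54.2 FPKM in ES day 0 and 3.63 in NPC, 2610305D13Rik at 52.6 and 5.47, Zfp534 at 39.9 and 3.52, and Rex2 at 13.3 and 0.91. The 17 summed to 321 FPKM in ES day 0, 188, 47.4 and 34.6 at days 2, 4 and 6 after LIF withdrawal, 46.4 in ME, 39.7 in NPC and 5.49 in NSC. Many are near-identical copies, so the split of reads among them is uncertain.

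Pairs of neighbours with ES cell or germ cell expression were lower as well. Rhox6 and Rhox9, X-linked homeobox genes, stood at 56.2 and 49.5 FPKM in ES day 0 and at 0.50 and 0.27 in NPC. Dppa2 and Morc1 stood at 29.3 and 22.2 and at 2.28 and 0.47. Ifitm1 and Ifitm3, interferon-induced membrane proteins, stood at 134 and 116 and at 8.09 and 7.51.

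Among genes with at least 5 FPKM in NPC or ES day 0, the 272 on the X chromosome had a median of 0.31 in NPC minus ES day 0, above each autosome (-0.07 to 0.13). Against the same ES day 0 column, the X median was 0.10 in NSC and 0.13 in ME, within the range of the autosomes there. Xist was at most at 0.31 FPKM (day 4) in all columns.

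NPC stood at least 1 log2 unit above all 6 other columns in 213 genes that passed the filter. After Crabp1, Crabp2, Sfrp2 and Insl6, the largest margins included Chgb (39.3 FPKM in NPC, at most 1.77 elsewhere), a granin of secretory vesicles, Dpysl4 (60.2 and at most 3.53) and Pcdh8 (28.6 and at most 1.85), a protocadherin.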
